A study of Mus musculus with 6 samples.

Results

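The genes described here are 9 of the 53647 genes counted in each library, chosen by symbol for their part in blood clotting and in the dissolution of clots: F3, Tfpi, Vwf, Thbd, Procr, Plat, Plau, Plaur and Serpine2. All 9 were found once in the files. The genes differed in their source cells in the proximal pulmonary artery (PA) and the tissue excised with it, and several shared them. Vwf was a blood endothelial gene, F3 an airway epithelial gene and Serpine2 a smooth muscle gene. The study counts airway epithelial cells among those of surrounding tissue. Of the known endothelial genes Thbd and Plat, Thbd stood higher in fibroblasts (FBs) than in blood endothelial cells (ECs), and Plat was at a similar level in both. No difference between old and young mice in these genes passed the adjusted test in any cell type.

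Clotting starts when tissue factor (F3), a membrane protein, meets plasma, and tissue factor pathway inhibitor (Tfpi) blocks this step. Von Willebrand factor (Vwf) tethers platelets to an injured wall. On the vessel surface thrombomodulin (Thbd) turns thrombin into an activator of protein C, which the endothelial protein C receptor (Procr) presents. Clots are dissolved by plasmin, which tissue-type (Plat) and urokinase-type (Plau) plasminogen activators release from plasminogen, the latter on its receptor (Plaur), while protease nexin 1 (Serpine2) inhibits thrombin and both activators.

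Single cell RNA sequencing was done on proximal PAs, excised with surrounding tissue, of wild type C57BL/6J mice, with 1 library per mouse. Both young mice, 1 of each sex, were 3 months old. The old mice were 20, 24, 27 and 28 months old, the oldest a female and the others males. Sexes come from the study's description. Values are unique molecular identifiers (UMIs, 1 tag per captured RNA molecule), summed per library and cell type and scaled to CPM, the count per 1000000 UMIs of that library and type. With 2 young and 4 old mice, old against young is the comparison the study was designed for.

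Old and young libraries differed in more than age. Young libraries held 9487564 and 6355125 UMIs, against 7042921 to 50436562 in old libraries. A kept barcode of a young mouse had a median of 841 or 816 UMIs, and those of mice of 20, 24, 27 and 28 months had 2162, 801.5, 8150 and 5465. Both young libraries and the old library of 24 months shared 131 to 215 kept barcodes per pair, against at most 4 in any other pair. Every library outside this barcode-sharing set is old. In fits with the set as a covariate, the age term thus compares the 24 month library alone with both young ones. The library of 20 months, described as male, held 3113 UMIs of Xist beside 8488 of Ddx3y, with 25 of Eif2s3y, 17 of Kdm5d and 77 of Uty, while the male of 27 months held 230 of Xist. The young female held 210 UMIs of Ddx3y and 171 of Uty, against 3 and 0 in the female of 28 months, and fits with sex as a covariate use the described sexes. Of 15410 kept cells, those of the young libraries lay mostly in other clusters than those of the 27 and 28 month libraries, also within a type. In ECs, for example, 82 and 60 young cells lay in a cluster led by Edn1, Vcam1 and Cytl1, which held 41 and 87 cells of those old libraries, while 226 and 547 of theirs lay in a cluster led by Acer2, Ldb2 and Cyp26b1. Age, depth and these clusters cannot be told apart in full. Cell types were named from markers and are called FB-like and so on (written here without the suffix), and the members and the 62 other listed genes were left out of the clustering. FBs, blood ECs and smooth muscle cells (SMCs) showed 10 of 10, 8 or 9 of 10, and 9 or 10 of 10 of their markers raised.

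Promoter sequences are shown for F3, Procr and Plaur, of the 5 members with a promoter window, and not for Serpine2 and Tfpi. The printed sequences are the RefSeq windows of 250 bases before to 50 bases after the gene start (build GRCm38.p6), 5′ to 3′ on the gene's strand. Matches to the AP-1 motif TGANTCA, which is its own reverse complement, are in capitals. F3 lies at chr3:121723287-121723586 on the + strand, Procr at chr2:155750967-155751266 on the + strand and Plaur at chr7:24462233-24462532 on the + strand.
F3: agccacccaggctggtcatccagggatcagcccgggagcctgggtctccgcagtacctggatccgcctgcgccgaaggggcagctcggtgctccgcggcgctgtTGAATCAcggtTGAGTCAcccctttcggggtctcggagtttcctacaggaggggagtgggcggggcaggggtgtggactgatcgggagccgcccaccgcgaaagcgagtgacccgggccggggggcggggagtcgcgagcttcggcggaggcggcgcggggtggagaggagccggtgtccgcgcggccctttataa
Procr: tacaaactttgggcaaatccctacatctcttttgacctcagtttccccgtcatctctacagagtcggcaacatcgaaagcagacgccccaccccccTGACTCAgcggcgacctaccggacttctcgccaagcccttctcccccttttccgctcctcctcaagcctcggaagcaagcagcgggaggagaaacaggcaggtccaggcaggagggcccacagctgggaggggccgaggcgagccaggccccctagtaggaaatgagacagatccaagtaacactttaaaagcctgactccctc
Plaur: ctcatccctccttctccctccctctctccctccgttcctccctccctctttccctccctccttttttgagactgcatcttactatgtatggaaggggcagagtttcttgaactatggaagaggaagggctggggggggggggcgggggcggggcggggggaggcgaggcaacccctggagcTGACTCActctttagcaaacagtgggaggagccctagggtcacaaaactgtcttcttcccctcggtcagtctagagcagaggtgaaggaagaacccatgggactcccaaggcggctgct
F3 held 2 matches, Procr 1 and Plaur 1, while the windows of Serpine2 and Tfpi held 0. The printed windows are thus those with a match. Of 32851 promoter windows, 7.81% held at least 1 match. The windows of Serpine2, Procr, F3 and Plaur also held 6, 0, 3 and 3 copies of GGGCGG on either strand, found in 35.7% of all windows. Each of the 2 Tfpi windows held 1. The window of F3 and 1 of the 2 Tfpi windows held TATAAA on either strand, found in 13.6%. Those of Serpine2, Procr and Plaur held 0. In F3 this match lies on the opposite strand, read as TTTATA near the end of the printed sequence. Of the other motifs searched, CCGGAA (14.9% of windows) and the CArG box (1.63%) matched none of the members' windows, and the NF-kB motif (20.7%) matched 2 times in F3, 2 in Procr, 1 in Plaur and 1 in 1 of the 2 Tfpi windows. A match describes letters, and no factor binding was measured.

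**Figure D1:**
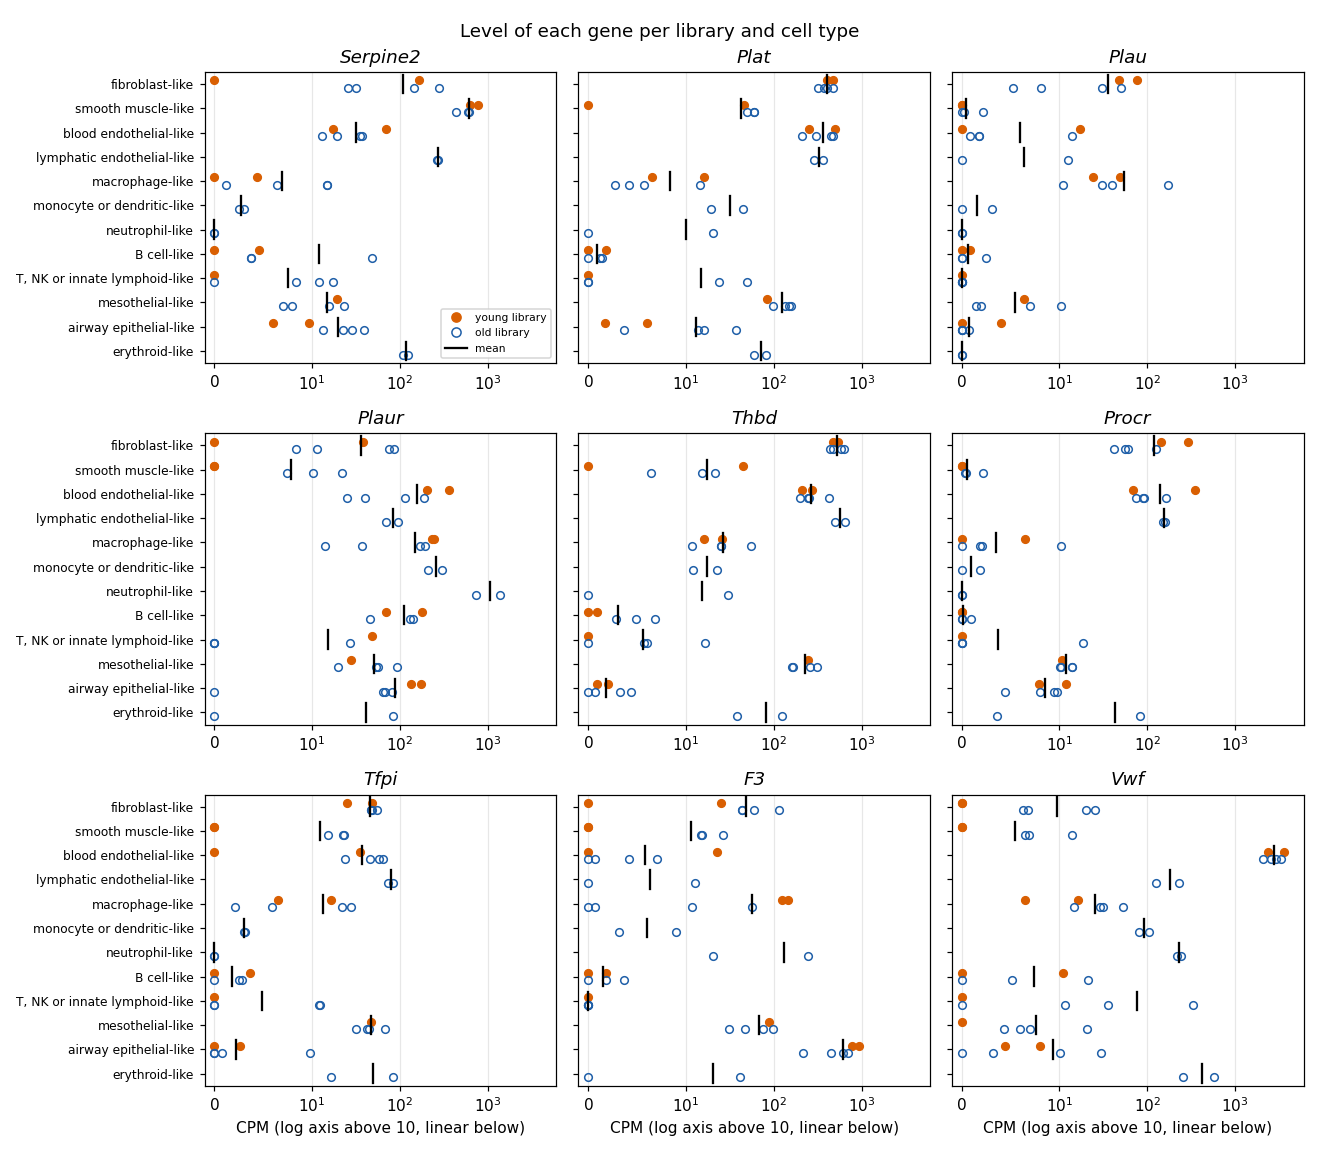
CPM of each gene (x axis, log above 10 and linear below) in each cell type (y axis), with 1 point per library that held at least 10 cells of the type (filled, young; open, old) and the mean as a bar. Vwf stands apart in blood endothelial-like cells, at 2060 to 3606 CPM, F3 in airway epithelial-like cells and Serpine2 in smooth muscle-like cells, while Plat and Thbd reach similar or higher levels in fibroblast-like cells.

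The old against young comparison was fitted over all genes with edgeR in 5 cell types, and 0 of the 9 genes passed an adjusted p under 0.05 in any of them. In FBs 6 of the 9 passed the filter on low values and 0 were called, where 0.0440% of the 6821 genes tested were called. At the study's threshold (unadjusted p under 0.05 and a fold over 2) 1 of the 6 FB genes passed, Procr, beside 6.57% of all genes. SMCs had 2 tested members, with 0 of 2 called (all genes, 0%) and 0 of 2 at the study's threshold (all genes, 8.07%). In ECs 6 were tested, with 0 called (all genes, 0%) and 0 at the study's threshold (all genes, 5.74%). Macrophages (MΦs) had 2 tested, with 0 called (all genes, 0%) and 0 at the study's threshold (all genes, 5.04%). In airway epithelial cells 4 were tested, 0 were called (all genes, 0%) and 1, Serpine2, passed the study's threshold (all genes, 4.75%). At an unadjusted p under 0.05 the counts were 1 of 6, 0 of 2, 0 of 6, 0 of 2 and 1 of 4 in the same order, and DESeq2 with its adjusted p also called 0 in each type. Of the 45 pairs of a member and a type, 20 were tested. The others were counted in over 5% of cells in fewer than 3 libraries. With 2 young libraries, a gene above that share in young libraries alone could not pass. A gene above it in old libraries alone could. Plau, Plaur and Vwf were not tested in FBs, nor were Serpine2, Plau and F3 in ECs.

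Old and young libraries often did not overlap in CPM. The groups were apart for 2 of 6 tested members in FBs (all genes, 24.7%), 2 of 2 in SMCs (all genes, 34.5%), 1 of 6 in ECs (all genes, 19.9%), 1 of 2 in MΦs (all genes, 17.1%) and 3 of 4 in airway epithelial cells (all genes, 15.7%). Of these, F3 in FBs, Plat in SMCs and Serpine2 in airway epithelial cells were counted in over 5% of cells in old libraries alone. They passed the filter through the group where they were higher, so their separation is not independent of it. Tfpi in FBs and ECs, Plau in MΦs and Plat in airway epithelial cells also passed through old libraries alone, with groups that overlapped. The median log2 fold change (old minus young) of the tested members was 0.09, 0.85, -0.08, -0.15 and 0.28 in this order of types, beside 0.25, 0.51, 0.18, 0.07 and 0.02 over all genes tested.

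**Figure D2:**
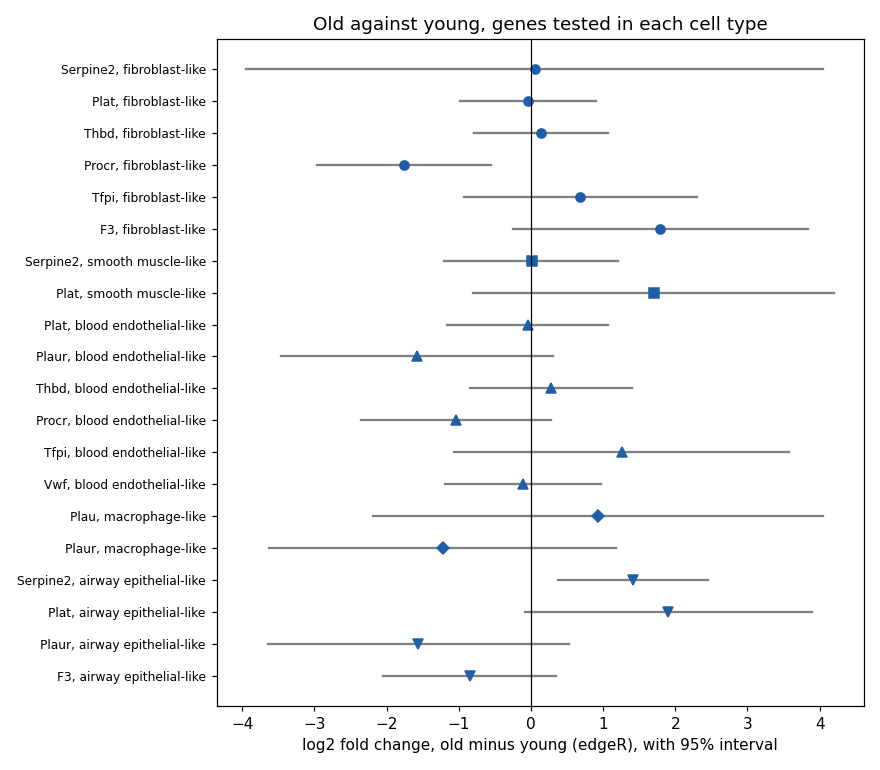
The log2 fold change (old minus young, x axis) with its 95% interval from edgeR for each gene tested in each cell type (y axis, marker shape by type). The intervals of Procr in fibroblast-like cells, from -2.96 to -0.56, and of Serpine2 in airway epithelial-like cells, from 0.37 to 2.45, leave out 0 before adjustment for all genes, and none passes after it.

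F3 was an airway epithelial gene in this tissue, with a mean of 618 ± 254 CPM (SD, n = 6 libraries). The young libraries measured 924 and 789 CPM and the old libraries of 20, 24, 27 and 28 months 710, 621, 215 and 451 CPM. All 4 old libraries lay below both young ones. Its log2 fold change was -0.85 ± 0.55 (SE) with an adjusted p of 0.782 in edgeR, so the difference did not pass the test. With the barcode-sharing set as a covariate it was -0.38, from the 24 month library alone against both young ones. Without the shared barcodes it was -0.80 (unadjusted p 0.169 in edgeR). Leaving these barcodes out took the F3 UMIs of airway cells from 1355 to 365 in young and from 1503 to 983 in old libraries. The 28 month value rests on 21 cells. The 27 month library, the lowest, held 1437 CPM of summed SMC markers in its airway cells against 6.01 to 45.4 CPM in the others, and without it the log2 fold change was -0.48. The part of these markers in the result was not tested. F3 was above the level in barcodes with under 100 UMIs, a measure of free RNA, in 6 of 6 libraries, by a median of 19.7 times.

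Within the airway epithelium F3 was highest in 1 cluster, in a description with no test. The cluster led by Aqp3, Dapl1 and Krt5, with the basal cell gene Trp63 among its leading genes and 5 of 10 airway markers raised, held 1210 CPM (95% counting interval 1135 to 1289). The secretory cluster led by Scgb1a1, Scgb3a1 and Scgb3a2 held 557 CPM (527 to 587). In the cluster led by the ciliary genes Ccdc153 and Tmem212 it was 311 CPM (286 to 338). The cluster with Krt5 was highest in each of the 5 libraries with at least 10 cells of it, at 1464, 1498, 1296, 1167 and 740 CPM, against 782, 736, 483, 501 and 280 CPM in the secretory cluster of the same libraries. The order of the secretory and ciliary clusters was less firm. In the ciliary cluster F3 was at 597 and 605 CPM in the young and 105, 499, 78.7 and 342 CPM in the old libraries, so at 24 months it was level with the secretory cluster. Without the 27 month library the summed level of the ciliary cluster was 501 CPM. Cells of this cluster were 49 of 258 and 98 of 421 airway cells in young libraries. In old libraries they were 15 of 59, 115 of 530, 49 of 93 and 11 of 21. The part of this share in the old against young values was not tested. Counting intervals of CPM here and elsewhere are exact Poisson intervals, and those of pooled ratios are exact binomial intervals. Both cover counting error only.

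Outside the airway the mean level of F3 was lower, and blood ECs held little of it. Blood ECs of the 6 libraries held 11 F3 UMIs in all, at most 22.8 CPM, and in 6 of 6 libraries the level was not above that of free RNA. FBs carried 25.2 and 0 CPM in the young libraries, from 2 UMIs, and 43.6, 60.1, 44.1 and 116 CPM in the old ones. The old libraries were all above both young ones, and the ratio of pooled CPM was 4.37 with a 95% counting interval from 1.21 to 36.2. The edgeR fold change was 1.79 ± 0.97 on the log2 scale (adjusted p 0.790). Most of the old UMIs, 615 of 777, came from the 28 month library, and without it the pooled ratio was 2.25 (0.613 to 18.7) and the log2 fold change 1.40 (unadjusted p 0.210). Without the barcodes shared between libraries the young group had 0 counts, and the fitted log2 value of 9.75 (unadjusted p 0.00461, adjusted p 0.690) is then no bound.

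In MΦs F3 was highest in a small cluster. The cluster led by Prg4, Alox15 and Saa3, whose leading genes also include the clotting factors F10 and F5 and the serpin Serpinb2, held 256 CPM (194 to 331), at 658, 205 and 162 CPM in the young male, young female and 24 month libraries. These 3 libraries, the ones that share barcodes, held its 170 cells. The cluster led by Cd209d, Cd209f and Ccl8, with 223 and 398 of its 623 cells from the 27 and 28 month libraries, held 2 F3 UMIs, or 0.502 CPM. Summed over MΦs, F3 was at 126 and 147 CPM in young libraries and at 11.7, 57.2, 0 and 0.757 CPM in old ones. It was counted in 7.49% and 12.1% of young MΦs and in at most 4.81% of those of any old library. It thus did not pass the filter, which asks for over 5% of cells in 3 libraries. Where other filters let it in, the log2 fold change was -3.05 with filterByExpr (unadjusted p 0.117, adjusted p 0.854), -2.87 without a gene filter (unadjusted p 0.211, adjusted p 0.835) and -3.01 in cells of at least 1000 UMIs and 500 genes (unadjusted p 0.121, adjusted p 0.901).

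Tfpi was low everywhere it was seen. Its mean was 78.0 ± 6.09 CPM in lymphatic ECs (SD, n = 2), 46.6 CPM in mesothelial cells (n = 5), 44.9 ± 10.2 in FBs (n = 6) and 37.3 ± 23.4 in blood ECs (n = 6). The ranges of FBs and blood ECs overlapped each other and that of mesothelial cells. In FBs the young libraries measured 25.2 and 47.8 CPM, from 3 UMIs in all, and the old ones 46.2, 55.1, 47.1 and 48.2 CPM. The pooled ratio of old to young was 1.60 in FBs, with an interval from 0.543 to 7.78. In ECs it was 2.28 with an interval from 0.623 to 18.9, on 2 young UMIs, and without the young female it was 1.29. Adjusted p values in edgeR were 0.932 and 0.923.

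Vwf was highest in blood ECs, with 2802 ± 591 CPM in blood ECs (SD, n = 6). The young libraries measured 3606 and 2349 CPM and the old ones 2060, 2539, 2949 and 3308 CPM. The groups overlapped. In edgeR the log2 fold change was -0.11 with a 95% interval from -1.19 to 0.97 (adjusted p 0.997). Lymphatic ECs held 180 ± 74.9 CPM (n = 2). Erythroid cells and neutrophils, each from 2 libraries, measured 415 and 232 CPM on average, while barcodes with under 100 UMIs held from 80.0 to 417 CPM of Vwf. FBs, SMCs and airway epithelial cells had at most 29.9 CPM, not above free RNA in any library.

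Blood ECs were not of 1 kind for these genes. The cluster led by Tcf15, Gpihbp1 and Car4, genes known from capillary ECs, held 86.0 CPM of Vwf (63.8 to 113), against 3756 CPM (3690 to 3823) in the cluster led by Acer2, Ldb2 and Cyp26b1, which has the arterial gene Gja5 among its leading genes. Both libraries with enough cells of each cluster showed it, at 130 against 3323 CPM at 27 months and 75.1 against 3930 CPM at 28 months. Plat went the same way, at 60.2 against 489 CPM, as did Procr at 10.3 against 99.4 CPM. The anticoagulant gene Thbd differed less, at 155 (124 to 190) against 221 CPM (205 to 237). Vwf was itself among the 10 leading genes of the second cluster, though the clustering did not use it. The capillary-gene cluster held 213 cells, 30 and 176 of them from those 2 libraries.

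**Figure D3:**
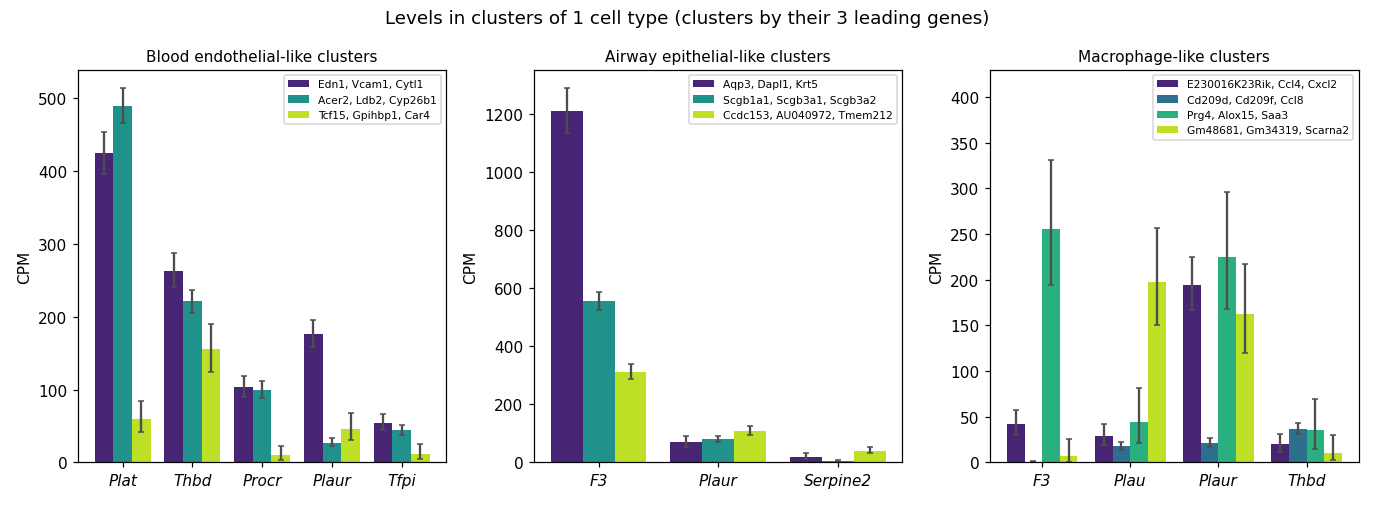
CPM (y axis, from 0) of named genes in clusters of blood endothelial-like, airway epithelial-like and macrophage-like cells, all libraries summed, with bars coloured by cluster (3 leading genes each) and exact Poisson 95% counting intervals. Plat and Procr are lowest in the cluster with Gpihbp1 and Car4, F3 is highest in the cluster with Krt5 at 1210 CPM, and among macrophage-like cells F3 is highest in the cluster with Prg4.

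Thbd was as much an FB gene as an endothelial one. FBs held 525 ± 73.1 CPM (SD, n = 6), blood ECs 267 ± 81.9 CPM (n = 6) and lymphatic ECs 572 ± 105 CPM (n = 2). FB libraries measured 543 and 478 CPM in young and 585, 441, 629 and 474 CPM in old mice. ECs measured 208 and 274 CPM in young and 246, 424, 254 and 199 CPM in old mice. The lowest FB library lay above the highest EC library, and the level was above free RNA in 6 of 6 libraries of each type, by a median of 18.7 times in FBs. Summed markers of blood ECs came to at most 295 CPM in FBs, against FB markers of 32945 and 36552 CPM in the young libraries. Of all Thbd UMIs in kept cells, FBs held 61.2% and blood ECs 17.1%, where FBs held 13.6% and blood ECs 8.85% of all UMIs. Mesothelial cells came next, at 229 ± 65.2 CPM (n = 5), a range that overlapped that of blood ECs.

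Old and young mice did not differ in Thbd beyond the spread between libraries. On the log2 scale the fold change was 0.14 in FBs (95% interval -0.79 to 1.07) and 0.28 in ECs (-0.84 to 1.40), with adjusted p values of 0.991 and 0.966 in edgeR. MΦs held 26.6 ± 14.9 CPM (n = 6), above free RNA in 3 of 6 libraries.

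Procr was seen in ECs and FBs, at lower mean levels than Thbd, while mesothelial cells held 11.8 CPM on average. Its mean was 155 ± 4.44 CPM in lymphatic ECs (n = 2), 139 ± 107 CPM in blood ECs (n = 6) and 120 ± 92.9 CPM in FBs (n = 6), and these ranges overlapped. In FBs it measured 290 and 143 CPM in the young libraries, from 23 and 3 UMIs, and 56.5, 125, 61.0 and 42.3 CPM in the old ones. Each old library was below both young ones. This gave a log2 fold change of -1.76 ± 0.57 (SE, 95% interval -2.96 to -0.56) with an unadjusted p of 0.00657 in edgeR, which did not pass adjustment over all genes (adjusted p 0.701). The old library of 24 months, of like depth to the young ones, was the closest to them.

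The Procr difference rested on few young cells. FBs numbered 90 and 29 in the young libraries. Without the young male the log2 fold change was -0.81 (unadjusted p 0.489), with the set of barcode-sharing libraries as a covariate it was -0.75 (unadjusted p 0.293), and without the shared barcodes it was -1.78 (unadjusted p 0.00611). In the cluster led by Tnfaip6, Cxcl1 and Pi16 alone, which held most young FBs, it was -1.51 (unadjusted p 0.0260), a comparison added after the data were seen. Summed blood EC markers in FBs were 88.4 and 143 CPM in young and 295, 80.1, 86.8 and 45.3 CPM in old libraries, and their part in the result was not tested.

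In ECs Procr measured 347 and 68.4 CPM in young libraries and 92.3, 163, 74.0 and 90.5 CPM in old ones. The groups overlapped, and the young libraries, on 20 and 3 UMIs, were the highest and the lowest of the 6. In ECs the log2 fold change was -1.04 ± 0.61 (adjusted p 0.893 in edgeR). It turned to 0.62 without the young male, was -1.81 without the young female (unadjusted p 0.0165) and -0.25 with the barcode-sharing set as a covariate.

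Plat was shared between FBs and ECs. FBs held 408 ± 62.5 CPM (SD, n = 6), blood ECs 364 ± 123 CPM (n = 6) and lymphatic ECs 330 ± 54.6 CPM (n = 2), which did not differ beyond their ranges. When counts of all libraries were summed, blood ECs stood above FBs, at 424 against 393 CPM. The young libraries measured 404 and 478 CPM in FBs and 503 and 251 CPM in ECs. Old libraries measured 477, 316, 373 and 400 CPM in FBs and 447, 212, 306 and 468 CPM in ECs. Old and young overlapped in both types. Fold changes were -0.04 on the log2 scale in each, with 95% intervals from -0.98 to 0.90 in FBs and from -1.16 to 1.07 in ECs (adjusted p 1.000 and 0.997 in edgeR).

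SMCs held little Plat, at 45.7 and 0 CPM in young libraries, from 1 UMI, and 49.7, 59.1 and 60.6 CPM in the old libraries of 20, 27 and 28 months. The 24 month library had too few SMCs to use. Plat in SMCs was above free RNA in 2 of 5 libraries. The pooled ratio was 2.61 with a counting interval from 0.469 to 103, and the adjusted p was 0.691 in edgeR. Without the young female that ratio was 1.30, and without the young male no young count was left. Airway epithelial cells measured 6.01 and 1.77 CPM in young and 16.2, 3.67, 13.9 and 37.8 CPM in old libraries, not above free RNA in any, and the fold change there was 1.90 ± 0.89 on the log2 scale (adjusted p 0.767). It was 0.30 with the barcode-sharing set as a covariate, 1.04 without the young female and 2.74 without the young male. The first compares the 24 month library alone with both young ones, and the others leave 1 young library. Without shared barcodes the young airway cells held 0 Plat counts.

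Plau was counted only 297 times in kept cells. MΦs held 55.6% of these UMIs and FBs 29.6%. MΦ libraries measured 23.9 and 48.8 CPM in young and 173, 40.2, 30.8 and 11 CPM in old mice, and of these only the 20 month library lay above both young ones. Of its 59 Plau UMIs, 57 lay in a cluster led by Gm48681, Gm34319 and Scarna2, of which 111 of 112 cells came from this library. For Plau in MΦs the log2 fold change was 0.93 ± 1.33 (adjusted p 0.885 in edgeR), with 0.24 left without the young male. FBs measured 75.7 and 47.8 CPM in young libraries, from 7 UMIs, and 30.8, 50.1, 5.30 and 8.13 CPM in old ones, and Plau was not tested there.

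Its receptor Plaur was a gene of white blood cells, ECs and epithelium. Neutrophils held 1056 ± 458 CPM (n = 2), monocytes and dendritic cells 255 ± 63.8 CPM (n = 2), blood ECs 155 ± 126 CPM (n = 6) and MΦs 148 ± 98.5 CPM (n = 6), and the ranges of the last 3 overlapped. ECs measured 364 and 205 CPM in young libraries and 185, 113, 39.7 and 24.7 CPM in old ones. MΦs measured 228 and 244 CPM in young and 170, 193, 37.1 and 14.0 CPM in old libraries. Airway epithelial cells measured 174 and 132 CPM in young and 81.1, 64.6, 67.8 and 0 CPM in old libraries. In each of ECs, MΦs and airway epithelial cells the old libraries lay below both young ones. The young EC values rest on 21 and 9 UMIs, and the counting interval of the second is 93.8 to 390 CPM. Other types did not show this. FBs, where Plaur was not tested, measured 37.9 and 0 CPM in young and 74.4, 85.1, 11.3 and 8.31 CPM in old libraries. Mesothelial cells measured 27.7 CPM in the young male and 93.4, 56.4, 53.6 and 19.9 CPM in old libraries.

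None of the Plaur differences in ECs, MΦs and airway epithelial cells passed the test. The log2 fold changes in edgeR were -1.58 ± 0.84 in ECs, -1.22 ± 1.03 in MΦs and -1.56 ± 0.88 in airway epithelial cells, with adjusted p values of 0.880, 0.804 and 0.775. The lowest EC and MΦ values were those of the 27 and 28 month libraries, which had the most UMIs per barcode. With the barcode-sharing set as a covariate the log2 fold change was -1.19 in ECs, -0.23 in MΦs and -1.15 in airway epithelial cells. In airway epithelial cells it was -1.35 without the shared barcodes (unadjusted p 0.180). Young Plaur UMIs there fell from 237 to 55 and old ones from 206 to 148. With every cell thinned to 500 UMIs the log2 fold change was -1.66 in ECs (unadjusted p 0.0506) and -0.77 in MΦs (unadjusted p 0.407). In the cluster that held most young ECs it was -1.26, and in that of MΦs -0.16, both added after the data were seen. Of the 8 neutrophil markers, summed levels in ECs were 0 CPM in both young libraries and from 0.903 to 17.0 CPM in old ones. At the young depth 3 counts would be 52.0 and 68.4 CPM, and the part of these markers in the result was not tested. Without the 20 month library the fold change in ECs was -2.60 (unadjusted p 0.00370) and with sex as a covariate -2.17 (unadjusted p 0.00443), and the adjusted p missed the threshold in both.

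**Figure D4:**
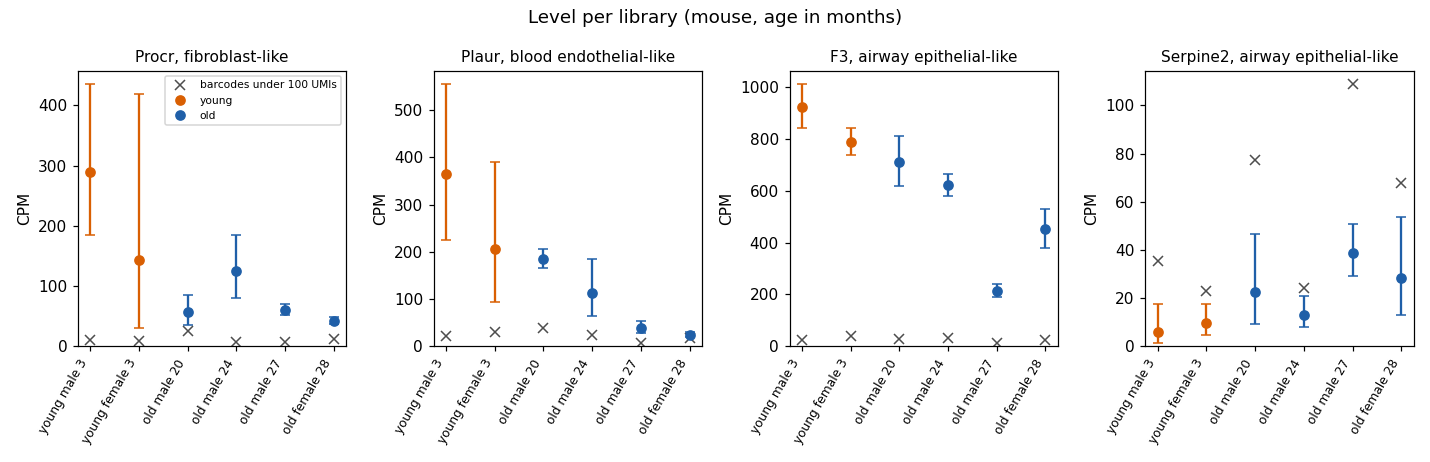
CPM (y axis, from 0) of 4 gene and cell type pairs in each library (x axis, young orange, old blue, age in months), with exact Poisson 95% counting intervals, and the level of the same gene in barcodes with under 100 UMIs as crosses. Procr in fibroblast-like cells, Plaur in blood endothelial-like cells and F3 in airway epithelial-like cells are above the crosses in all 6 libraries, with each old library under both young, while Serpine2 in airway epithelial-like cells lies under the crosses in all 6.

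Serpine2 was above all an SMC gene, with 608 ± 121 CPM (SD, n = 5) and 93.2% of its UMIs in kept cells. SMCs held 44.2% of all UMIs. Young libraries measured 777 and 629 CPM, from 17 and 14 UMIs, and old ones 436, 610 and 586 CPM. The old libraries were below both young ones, while the TMM-scaled fold change was 0.01 with a 95% interval from -1.20 to 1.21 (adjusted p 1.000 in edgeR), and -0.37 without that scaling. The median log2 fold change of all genes in SMCs was 0.51 with and 0.13 without it, and the genes at the study's threshold were 476 higher and 62 lower with it, against 162 and 138 without.

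Lymphatic ECs came second for Serpine2, at 268 ± 5.23 CPM (n = 2). FBs spread widely, at 164 and 0 CPM in young and 25.7, 275, 143 and 31.7 CPM in old libraries (107 ± 106, n = 6). The log2 fold change in FBs was 0.05 with an interval from -3.95 to 4.04, and 1.43 with the barcode-sharing set as a covariate. It was above free RNA in 3 of 6 FB libraries.

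Serpine2 in airway epithelial cells was higher in CPM in the old libraries, at low levels. The young libraries measured 6.01 and 9.71 CPM and the old ones 22.7, 13.2, 38.6 and 28.4 CPM, without overlap. The log2 fold change was 1.41 ± 0.47 (unadjusted p 0.0122, adjusted p 0.767 in edgeR). In all 6 libraries the level was under that of free RNA, which was 35.5 and 22.9 CPM in young and 77.4, 24.0, 109 and 67.9 CPM in old libraries. Summed SMC markers in airway epithelial cells were 6.01 and 22.9 CPM in young and 45.4, 14.7, 1437 and 22.1 CPM in old libraries, and their part in the result was not tested. By cluster Serpine2 was at 41.0 CPM (32.2 to 51.6) in the ciliary, 20.2 (11.6 to 32.8) in the Krt5 and 4.96 (2.56 to 8.66) in the secretory cluster. Within the ciliary cluster it was at 0 and 23.7 CPM in young and 70.1, 29.4, 56.2 and 41.4 CPM in old libraries. The share of that cluster in each library is given with F3, and its part in the Serpine2 result was not tested. Without the barcodes shared between libraries the log2 fold change was 0.84 (unadjusted p 0.153), and without the 20 month, the 27 month or the 28 month library the gene no longer passed the filter on low values.

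The other listed genes of clotting and fibrinolysis were 62, in 6 lists, and 0 of them were called in either direction in any type. In FBs 18 were tested, with 12 fold changes above and 6 below 0. SMCs had 17 tested (11 above, 6 below), ECs 17 (7 above, 10 below), MΦs 16 (8 above, 8 below) and airway epithelial cells 19 (6 above, 13 below). Over all genes tested the median log2 fold change was 0.25, 0.51, 0.18, 0.07 and 0.02 in these types, so the directions are to be read beside it. Among those above 0 were F2r in FBs and F2r and Mcfd2 in SMCs, with 0 young UMIs. In the list of other plasminogen system genes the median log2 fold change was 0.08 in FBs (7 genes), 0.44 in SMCs (8), -0.65 in ECs (5), -0.54 in MΦs (7) and -0.33 in airway epithelial cells (5). All 7 tested in MΦs were below 0, with unadjusted p values from 0.234 to 0.641 in edgeR. The part of the differing MΦ clusters of young and old libraries in this was not tested. For circulating anticoagulants and serpins the median was 0.42, 0.54, -0.31, 0.53 and -0.20 in the same types, on 5, 4, 5, 3 and 5 genes. The list of factor secretion and vitamin K cycle genes had medians of 0.00, 0.00, 0.27, 0.02 and 0.04, on 5, 3, 4, 3 and 4 genes, with genes at 0 in a group set to their bound. Protease-activated receptors had 2 genes tested in ECs (median -0.80) and in airway epithelial cells (-0.76), and platelet adhesion genes 2 in MΦs (0.64) and 2 in airway epithelial cells (-0.03). Clotting factors had 1 gene tested in MΦs and 1 in airway epithelial cells.

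Some genes of these lists passed the study's threshold with libraries that did not overlap, without passing adjustment. With or without overlap, 2 of 18 listed genes passed it in FBs (all genes, 6.57%) and 3 of 17 in SMCs (all genes, 8.07%). The counts were 1 of 17 in ECs (all genes, 5.74%) and 2 of 16 in MΦs (all genes, 5.04%). In airway epithelial cells 1 higher and 1 lower of 19 passed (all genes, 4.75%). Gas6, a vitamin K dependent ligand, was at 85.6 ± 14.0 CPM in young and 286 ± 170 CPM in old FBs (log2 fold change 1.84 ± 0.67, adjusted p 0.701 in edgeR). Anxa2, which binds Plat and plasminogen on cells, was at 263 ± 33.1 and 517 ± 85.9 CPM (1.11 ± 0.49, adjusted p 0.728). The thrombin receptor F2r was at 208 ± 3.24 CPM in old against 467 ± 146 CPM in young ECs (-1.11 ± 0.43, adjusted p 0.842). Serping1, the C1 inhibitor, was at 28.3 ± 2.53 and 103 ± 100 CPM in young and old airway epithelial cells (adjusted p 0.767), and in SMCs its pooled ratio was 3.06 with an interval from 0.848 to 25.3, on 2 young UMIs. In SMCs F2r and Mcfd2 had 0 young UMIs, and their old levels of 52.8 ± 8.65 and 57.9 ± 26.8 CPM were on average below the level that 3 young counts would give, so no fold is given. Serping1, F2r and Mcfd2 in SMCs passed the filter on low values through old libraries alone, so their separation is not independent of that filter.

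The genes with the highest mean CPM of the lists were also sought in 4 cell types. In FBs these were Lrp1 at 1089 CPM, a clearance receptor for Plat and Serpine2 complexes, Serping1 at 2026, Lman1 at 116, F8 at 17.9, F2r at 16.8 and Entpd1 at 11 CPM (means over libraries). SMCs had Anxa5 at 357, Entpd1 at 325, Lman1 at 82.4, F13a1 at 53.9 and F2r at 31.7 CPM. ECs had S100a10 at 608, F2r at 294, Gas6 at 245, Entpd1 at 197, Mcfd2 at 132 and F5 at 34.9 CPM. MΦs had F13a1 at 1944, Thbs1 at 804, Anxa5 at 389, Tbxas1 at 242, Furin at 111 and F2r at 2.84 CPM. F13a1, the transglutaminase that crosslinks fibrin, was at 252 ± 58.0 CPM in young and 2790 ± 2804 CPM in old MΦs, with a log2 fold change of 3.25 ± 1.33 (adjusted p 0.804 in edgeR) and groups that overlapped. It was also among the leading genes of the MΦ cluster led by Cd209d, which held 0 young cells.

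The genes most like each member were sought by Pearson correlation of log2(CPM + 1) over the 12 cell types, as a description. Vwf was most like Ptprb (r = 0.944), Rasip1 and Clec14a, all endothelial genes. Serpine2 was most like Napepld (0.963), Lepr and Postn, Plat like Fzd4 (0.958), Ntn4 and Ghr, Thbd like Kcnt2 (0.956), Igfbp4 and Thsd7a, and Procr like Zfp521 (0.918), Ntn4 and Nova1. Ntn4 was thus near both Plat and Procr. For Tfpi they were Nynrin (0.964), Txndc12 and Cd99l2, for F3 Mgst1 (0.890), Alas1 and Scnn1a, for Plau Dnm1 (0.947), Atp6v1h and Abcd4, and for Plaur Etf1 (0.905), Baz2b and Tpd52. The 12 points share libraries and differ in depth, and Ptprb is also one of the markers that named the ECs.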

How the data were processed

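Proximal PAs of 2 young and 4 old mice were used; a further young library is not analysed here. Tissue was digested with collagenase and elastase and cells were captured in droplets. Per the labels' processing notes, Cutadapt, STARsolo and GRCm38.p6 were used. The authors deposited raw counts (UMIs for each gene and barcode), with no filter and no normalization.

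Barcodes with at least 500 UMIs, 300 genes and at most 20% mitochondrial UMIs were kept (15622), and 212 doublets were removed with scrublet or, where it marked under 0.5%, by the highest scores (0.8% per 1000 barcodes). The remaining cells were clustered (scanpy 1.11.5, 2000 variable genes, 40 components, 15 neighbours, Leiden resolution 1.0) into 29 clusters, named when over 40% of a type's markers were raised; 394 cells stayed unnamed. Sums per library and type (10 or more cells) were compared in edgeR 4.0.16 (TMM, robust quasi-likelihood test, Benjamini-Hochberg adjustment over all genes tested), for genes counted in over 5% of cells in 3 or more libraries. The study's mixed model over cells was replaced by these sums. Each library is described as 1 mouse, and p-values measure the spread between libraries. Both young libraries and an old library share barcodes, as given above. Whether these libraries are independent of each other was not tested. The p-values may therefore not measure the spread between mice, above all in airway epithelial cells, where leaving shared barcodes out removed most young F3 and Plaur UMIs. Counting intervals of CPM are 95% exact Poisson intervals and those of pooled ratios 95% exact binomial intervals. A count of 0 was given a floor of 3 counts. All of these cover counting error only. The SE and 95% interval of a log2 fold change were computed from its edgeR value and F statistic, and reflect the spread between libraries. Alternatives were DESeq2 1.42.0, other cell and gene filters, thinning to 500 UMIs, scalings, covariates and leaving out each library.

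The members and lists were chosen with earlier results of these data known. Named genes were all 9 members, listed genes past the study's threshold without overlap, the listed gene of highest mean CPM, and the 3 genes most like each member with at least 200 counts, among genes with a mean of at least 10 CPM. The highest gene of 1 list in SMCs is not reported here. In data simulated with 200 changed genes, a 4-fold change was called for 13% in FBs, 1.5% in SMCs, 7.5% in ECs, 1.5% in MΦs and 59% in airway epithelial cells, and a 16-fold change for 90.5%, 60%, 91.5%, 88% and 98.5%. With 200 genes changed at once the adjusted threshold is easier to pass than with few. These rates are thus an upper guide for 1 changed gene. At 4-fold, 7, 4, 3, 0 and 12 unchanged genes were also called in these types, beside 26, 3, 15, 3 and 118 changed ones.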

Additional observations from a re-analysis of the deposited data

Results flagged for a closer look

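In the 4 old libraries, 3 of the values of members per cell type stood apart from the other old libraries by Dixon's test, among 36 such tests, where chance flags about 1 in 20. Plau in blood ECs was at 14.1 CPM in the 24 month library, on 2 UMIs, against 0.903 to 1.81 CPM in the others. Plau in airway epithelial cells was at 0.735 CPM in the same library, on 1 UMI, against 0. Tfpi in airway epithelial cells was at 9.73 CPM in the 20 month library, on 3 UMIs, against at most 0.729 CPM.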

How the results depend on the processing

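No member passed an adjusted p under 0.05 under any of the alternatives run, and the smallest adjusted p was 0.256. Of 312 fold changes refitted, 279 kept their direction and 33 turned. The count of members at the study's threshold was 1 in FBs. It was 2 without shared barcodes, where the second gene was F3 with 0 young counts. It was 2 without a gene filter, 0 after thinning to 500 UMIs and from 1 to 2 on leaving out an old library. In ECs (0) it was 1 without a gene filter, without TMM, with DESeq2 and with sex as a covariate, and from 0 to 1 on leaving out an old library. In MΦs (0) it was 1 with filterByExpr and without a gene filter, namely Vwf, not above free RNA in any of 6 MΦ libraries. In airway epithelial cells (1) it was 0 after thinning and in the cluster with most young cells, and 3 without a gene filter and with sex. It was 2 without TMM and with DESeq2, and from 0 to 2 on leaving out an old library. Without shared barcodes it stayed 1, but the gene was then Plat, with 0 young counts, in place of Serpine2. Fits that rest on 1 library of an age group are left out of the counts at this threshold. Fits with the barcode-sharing set as a covariate are among them. The cause of these shifts was not tested.

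Small fold changes turned in direction, and so did the larger one of Procr in ECs (-1.04). Serpine2 in FBs was -0.23 after thinning, and from -0.79 (without the 24 month library) to 10.80 (without the young male, when the young group had 0 counts). Plat in FBs was 0.00 with at most 10% mitochondrial UMIs, 0.03 with filterByExpr and 0.29 without a gene filter, and from -0.15 to 0.08 on leaving out a library. Thbd in FBs was -0.07 after thinning, -0.00 with the set as a covariate and -0.02 in the cluster with most young cells, and from -0.14 to 0.44. Serpine2 in SMCs was -0.02 with at most 10% mitochondrial UMIs, -0.24 with doublets kept, -0.44 after thinning, -0.37 without TMM, -0.13 with DESeq2 and -0.00 with sex, and from -0.08 to 0.14. Plat in ECs was 0.13 with filterByExpr and 0.35 without a gene filter, and from -0.53 to 0.57. Vwf in ECs was 0.04 and 0.24 under the same filters, and from -0.47 to 0.24. Leaving out a library gave -0.03 to 0.49 for Thbd and -1.81 to 0.62 for Procr in ECs. Plat in FBs stood at 327 CPM when at least 1000 UMIs were asked of a cell, and ECs were then highest at 362 CPM. FBs, SMCs and ECs could not be compared at 1000 UMIs, and the set could not be a covariate in SMCs. No paired analysis was possible because the labels give the mice of both groups no shared numbers.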
